A study of Homo sapiens with 10 samples.

Results

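The 10 transcripts described here are ATF4, the transcription factor at the centre of the integrated stress response, and 9 genes that act with it or downstream of it: ATF3, DDIT3, CEBPB, TRIB3, SESN2, DDIT4, CHAC1, STC2 and VLDLR. They were taken by name from the 61533 genes of the count tables, with earlier results of these data known, and all 10 of them were among the 16181 genes with enough counts to be tested. RNA-seq had been carried out on 5 libraries of the human bladder cancer line T24 and on 5 libraries of T24R2, a single line that was derived from T24 by serial exposure to cisplatin and is resistant to that drug. Cells of both lines were collected on day 3 of culture. The methods keep T24R2 in cisplatin, whereas the sample labels give the same medium for both lines and list no drug, so that the line and exposure to cisplatin cannot be told apart. Total counts were 9257843 to 10247941 per T24 library (median 9803565) and 9591379 to 10840954 per T24R2 library (median 10354041). The labels number the replicates without saying that they were separate cultures, and the methods speak of independent experiments in general without tying this to these libraries. The p-values therefore measure the spread between these libraries, which may be technical.

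In the integrated stress response, kinases that sense lack of amino acids, misfolded proteins in the endoplasmic reticulum (ER), viral RNA or lack of heme phosphorylate the initiation factor eIF2. Most protein synthesis then slows, while the ATF4 mRNA, which carries short upstream reading frames, is translated more, so that the level of the mRNA and that of the protein can move separately. ATF4 pairs with other bZIP factors, such as CEBPB, on composite DNA elements and turns on genes of amino acid supply and redox control and, with its target DDIT3 (CHOP), genes of cell death. RNA-seq reads the mRNA levels only.

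By edgeR's quasi-likelihood test, 4 of the 10 transcripts (40%) were called higher in T24R2 and 1 (10%) was called lower. Both an adjusted p-value below 0.05 and a log2 fold change beyond 0.5 in size were needed for a call. SESN2, STC2, CEBPB and CHAC1 were higher, VLDLR was lower, and ATF4 itself was lower by less than the minimum. ATF3, DDIT3, TRIB3 and DDIT4 were not called. These shares are to be read against all tested genes, of which 51.4% were called, 24.9% higher and 26.5% lower in T24R2. The median log2 fold change was -0.04 over the 10 transcripts and 0.01 over all tested genes. The values of the lines did not overlap for 6 of the 10 transcripts (60%) and for 61.2% of all tested genes (29.9% higher and 31.3% lower in T24R2). Of those 6, SESN2, STC2, CEBPB and CHAC1 were higher and ATF4 and VLDLR lower. The 10 transcripts were thus called about as often as any others, and what follows describes which of them were higher, lower or neither.

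**Figure D1:**
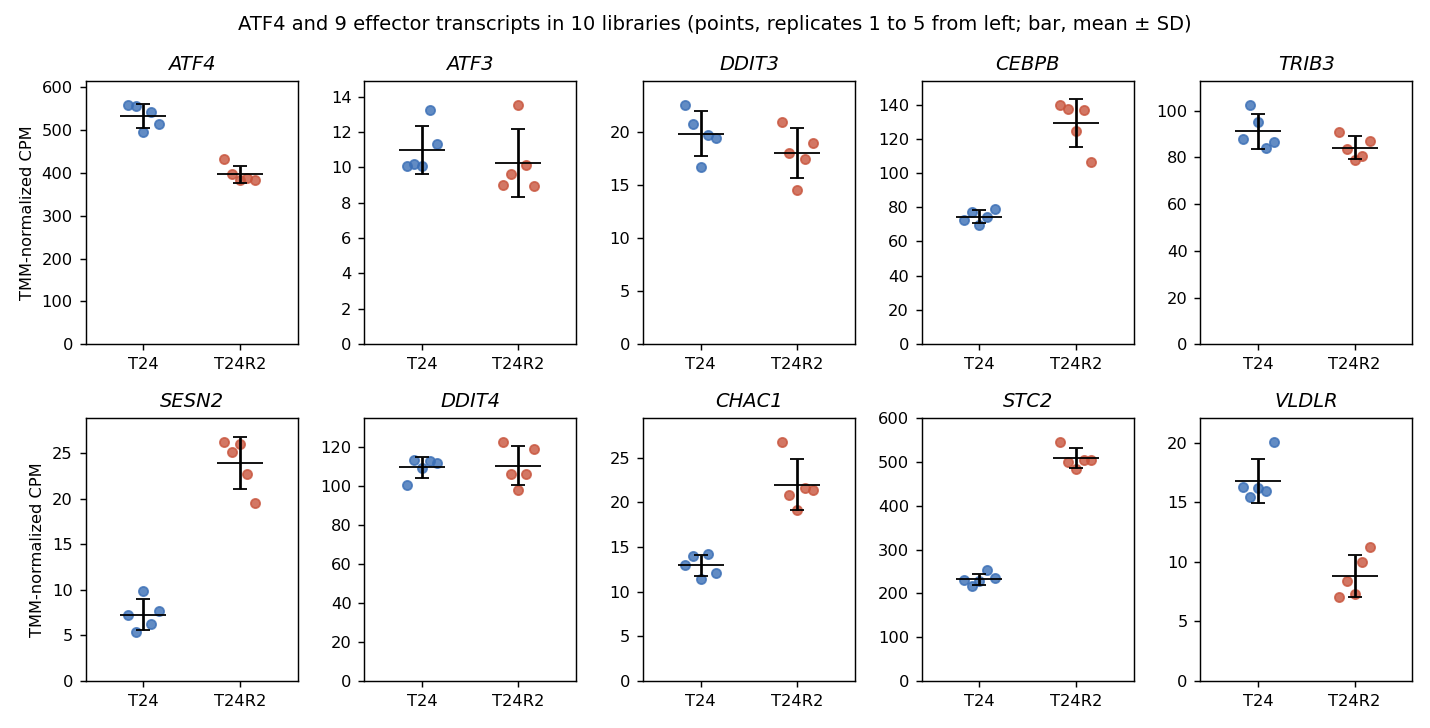
TMM-normalized CPM (library-scaled counts, y axis from 0) of each of the 10 transcripts in the 5 T24 and 5 T24R2 libraries, with replicates 1 to 5 from left to right in each line and the bar showing mean ± SD (n = 5). All T24R2 points of SESN2, STC2, CEBPB and CHAC1 lie above all T24 points, those of ATF4 and VLDLR lie below, and the points of the other 4 transcripts intermingle.

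ATF4 (ENSG00000128272.18, plus strand of chromosome 22 of hg38, 39519695 to 39522683) encodes the bZIP factor whose translation rises when eIF2 is phosphorylated. Its CPM, the count scaled to the TMM-adjusted library size, was 559, 557, 495, 542 and 515 in T24 replicates 1 to 5 and 432, 398, 384, 388 and 383 in T24R2 replicates 1 to 5. Every T24R2 library was below every T24 library (p = 0.00794 by an exact two-sided permutation test, for which 5 against 5 can give no smaller value). In bulk RNA, fewer cells with a transcript and less of it per cell cannot be told apart. The mean fell from 533 ± 27.8 to 397 ± 20.3 CPM (SD, n = 5 each), and the log2 fold change was -0.43 (standard error, SE, 0.04, 95% confidence interval -0.52 to -0.34, adjusted p = 3.4e-11 by edgeR with Benjamini-Hochberg adjustment). This is a difference beyond the replicate error that stays under the fold change minimum, and ATF4 was called only when that minimum was dropped. Without scaling beyond library size it was -0.26 (adjusted p = 1.13e-06 by edgeR). No exon base of ATF4 is shared with another gene on the opposite strand (0%).

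ATF3 (ENSG00000162772.17, plus strand of chromosome 1, 212565334 to 212620777), a bZIP factor that is quickly induced by stress and can act as a repressor, had 10.1, 10.2, 10.1, 13.2 and 11.3 CPM in T24 and 8.99, 9.62, 13.5, 10.2 and 8.95 in T24R2. The ranges overlap almost wholly, and a single library of each line lay above 13 CPM. The means were 10.98 ± 1.37 and 10.3 ± 1.90 CPM (SD, n = 5 each), with a log2 fold change of -0.10 (95% confidence interval -0.37 to 0.17, adjusted p = 0.501 by edgeR). Without T24R2 replicate 3 it was -0.21 (adjusted p = 0.144 by edgeR). Without T24 replicate 4, the T24 library above 13 CPM, it was -0.03 (adjusted p = 0.853 by edgeR).

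DDIT3 (ENSG00000175197.13, minus strand of chromosome 12, 57516588 to 57521737) encodes CHOP, the bZIP factor tied to the cell death output of prolonged ER stress. It had 22.5, 20.7, 16.7, 19.7 and 19.4 CPM in T24 and 20.9, 18.03, 14.5, 17.5 and 18.98 in T24R2. The lines overlap, and replicate 3 was the lowest in both. The means were 19.8 ± 2.13 and 17.98 ± 2.35 CPM (SD, n = 5 each), and the log2 fold change was -0.14 (95% confidence interval -0.35 to 0.07, adjusted p = 0.209 by edgeR).

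The DDIT3 value is uncertain because other genes overlap it. DDIT3 shares 355 exon bases, 27.2% of its length, with MARS1, the methionyl-tRNA synthetase gene (chromosome 12, 57475445 to 57517569), and 58 with MBD6, both on the opposite strand. Counting used a strand option of featureCounts, but the 188 genes of at least 300 bases that lie at least 90% inside the exons of 1 opposite-strand gene with a mean of at least 500 counts had a median density of counts 1.67 times that of the gene around them (quartiles 0.666 to 2.74), so that fragments of the opposite strand cannot be taken to have been left out. MARS1 rose from 172 ± 5.21 to 222 ± 7.72 CPM (SD, n = 5 each, log2 fold change 0.37, adjusted p = 1.1e-09 by edgeR), also under the fold change minimum. At the mean density of MARS1 and MBD6, about 83.9 of the mean 184.6 DDIT3 counts in T24 and 125 of 195.2 in T24R2 would be theirs. With that estimate taken off, DDIT3 went from 10.8 ± 1.89 to 6.47 ± 2.47 CPM (SD, n = 5 each), and the log2 ratio was -0.74 (exact two-sided permutation test, p = 0.0159). The ranges were then 7.90 to 13.1 and 2.54 to 9.24 CPM, which still overlap. The estimate assumes that counts are spread evenly along MARS1, and it was chosen after the data were seen. Whether the library kit keeps strand is not settled by the sources used here. With all 10 libraries and TMM scaling kept, these 2 ways of counting gave -0.14 and -0.74 for DDIT3, and neither is preferred here. Scaling matters as well. As deposited and without scaling beyond library size, DDIT3 was at 0.023 (adjusted p = 0.847 by edgeR).

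CEBPB (ENSG00000172216.6, plus strand of chromosome 20, 50190830 to 50192668), which encodes C/EBPβ, a partner of ATF4 on composite elements, was higher in T24R2. Its CPM was 72.4, 77.1, 69.6, 74.1 and 78.8 in T24 and 140, 137, 125, 137 and 106 in T24R2. The T24R2 values lie entirely above those of T24, with replicate 5 well below the other 4. The mean rose from 74.4 ± 3.68 to 129 ± 13.9 CPM (SD, n = 5 each), and the log2 fold change was 0.79 (SE 0.06, adjusted p = 4.9e-15 by edgeR; exact two-sided permutation test, p = 0.00794). The antisense gene CEBPB-AS1 covers 231 of its exon bases (12.6%) and its value rose as well, from 17.2 ± 1.37 to 33.2 ± 6.16 CPM (log2 fold change 0.95, adjusted p = 9.6e-11 by edgeR). How much of the CEBPB-AS1 value could come from CEBPB fragments on the shared bases was not tested. With all CEBPB-AS1 counts taken off, the log2 ratio of CEBPB was 0.74.

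The pseudokinase gene TRIB3 (ENSG00000101255.12, plus strand of chromosome 20, 362835 to 397559) is an ATF4 and CHOP target whose product binds ATF4 and dampens its activity. Its values were 88.0, 102, 94.95, 83.9 and 86.4 CPM in T24 and 90.9, 83.6, 79.0, 80.5 and 87.2 in T24R2. The 2 highest values are from T24 and the 3 lowest from T24R2, but the lines overlap. The means were 91.1 ± 7.54 and 84.2 ± 4.90 CPM (SD, n = 5 each), with a log2 fold change of -0.11 (95% confidence interval -0.23 to 0.00, adjusted p = 0.0685 by edgeR). With 1 library left out at a time, it ranged from -0.15 to -0.07 and was not called. The adjusted p by edgeR was below 0.05 without T24 replicate 4 (0.0237), T24 replicate 5 (0.0439) or T24R2 replicate 1 (0.0317).

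SESN2 (ENSG00000130766.5, plus strand of chromosome 1, 28259518 to 28282491) showed the largest fold change of the 10 transcripts. It encodes sestrin 2, a leucine-binding protein that restrains the growth kinase mTORC1 and supports the antioxidant response, and it is also a known p53 target. T24 libraries had 7.27, 5.37, 9.83, 6.24 and 7.67 CPM, and T24R2 libraries 26.2, 25.1, 26.01, 22.7 and 19.5. Every T24R2 value was above every T24 value. The mean rose from 7.27 ± 1.69 to 23.9 ± 2.84 CPM (SD, n = 5 each), 3.29 times the T24 mean, with a log2 fold change of 1.72 (SE 0.13, 95% confidence interval 1.47 to 1.98, adjusted p = 1.7e-15 by edgeR; exact two-sided permutation test, p = 0.00794).

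DDIT4 (ENSG00000168209.6, plus strand of chromosome 10, 72273919 to 72276036), which encodes REDD1, the other mTORC1 inhibitor among the 10, was not called. Its values were 100, 113, 109, 113 and 112 CPM in T24 and 123, 106, 98.0, 106 and 119 in T24R2. Both the highest and the lowest value were from T24R2, around almost equal means of 109 ± 5.42 and 110 ± 10.1 CPM (SD, n = 5 each). The log2 fold change was 0.01, and its 95% confidence interval of -0.10 to 0.12 lies within the fold change minimum on both sides (adjusted p = 0.862 by edgeR). Without scaling beyond library size it was 0.17 (adjusted p = 0.00524 by edgeR), still under that minimum.

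CHAC1 (ENSG00000128965.13, plus strand of chromosome 15, 40952962 to 40956512) encodes an enzyme that breaks down glutathione and is among the more selective readouts of the ATF4 and CHOP branch. Its values were 13.0, 14.0, 11.4, 14.2 and 12.1 CPM in T24 and 26.8, 20.8, 19.2, 21.7 and 21.3 in T24R2. The lines are apart, and replicate 1 was the highest of T24R2. The mean rose from 12.9 ± 1.19 to 21.96 ± 2.86 CPM (SD, n = 5 each), and the log2 fold change was 0.76 (SE 0.11, adjusted p = 3e-08 by edgeR; exact two-sided permutation test, p = 0.00794).

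STC2 (ENSG00000113739.11, minus strand of chromosome 5, 173314723 to 173328447) encodes stanniocalcin 2, a secreted glycoprotein induced by ER stress and hypoxia. It had 229, 217, 228, 252.4 and 234 CPM in T24 and 546, 500, 484, 505 and 505 in T24R2. The spread within each line was small beside the distance between the lines. The mean rose from 232 ± 13.1 to 508 ± 22.9 CPM (SD, n = 5 each), and the log2 fold change was 1.13 (SE 0.05, adjusted p = 5.8e-24 by edgeR; exact two-sided permutation test, p = 0.00794). No other of the 10 had an adjusted p as small.

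VLDLR (ENSG00000147852.17, plus strand of chromosome 9, 2621182 to 2660056), which encodes the receptor for very low density lipoprotein and is induced by ATF4 under ER stress, was the one transcript called lower. Its values were 16.3, 15.5, 16.2, 15.9 and 20.1 CPM in T24 and 7.07, 8.41, 7.29, 9.98 and 11.2 in T24R2. All T24R2 values were below all T24 values. The mean fell from 16.8 ± 1.87 to 8.79 ± 1.78 CPM (SD, n = 5 each), and the log2 fold change was -0.93 (SE 0.13, adjusted p = 2.1e-08 by edgeR; exact two-sided permutation test, p = 0.00794). VLDLR-AS1 and ENSG00000286670, both on the opposite strand, cover 8.24% of its exon bases. With all of their counts taken off, the log2 ratio was -0.93 again, although the values then ranged from 9.57 to 14.0 CPM in T24 and from 4.22 to 9.93 in T24R2, which overlap.

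**Figure D2:**
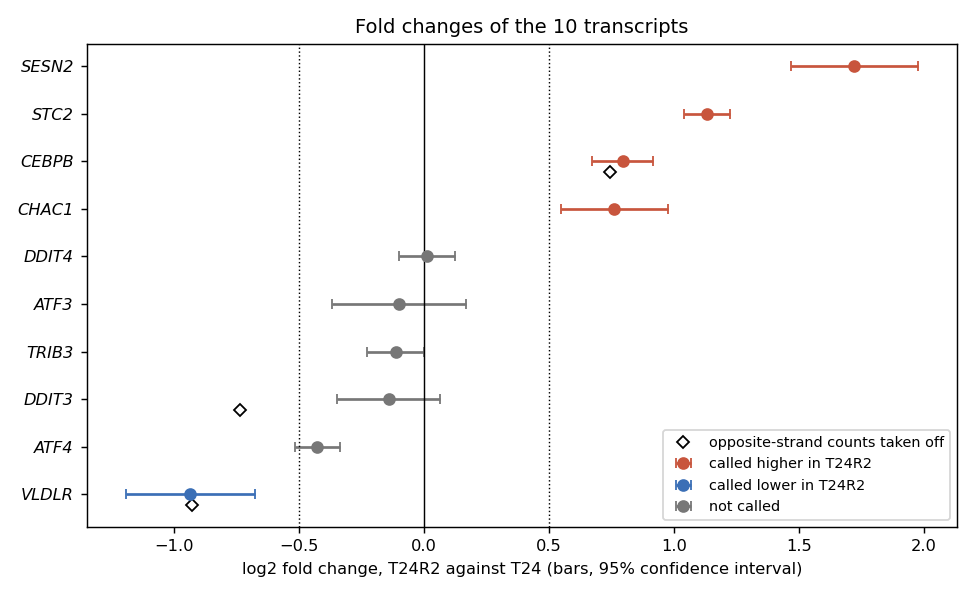
Log2 fold change of each transcript in T24R2 against T24 (points) with its 95% confidence interval (bars), and the log2 ratio after counts of opposite-strand genes were taken off (open diamonds). Dotted lines mark the minimum of 0.5 in each direction. SESN2 is farthest to the right at 1.72, and the largest shift from taking counts off is that of DDIT3, from -0.14 to -0.74.

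The sequences before the transcription starts were read because 4 of the transcripts rose together, and are shown for these 4 and for ATF3. The sequences are those of RefSeq for GRCh38.p14, 5′ to 3′ on the strand of the gene, and all 10 genes had an entry. ATF4 binds composite elements with the core TGATGNAA, and capitals mark this core and the CCAAT box, on either strand, so that CCAAT on the opposite strand reads ATTGG. SESN2 (chr1:28259268-28259517, plus strand) and CEBPB (chr20:50190580-50190829, plus strand) are shown over 250 bases, STC2 (chr5:173328448-173328664, minus strand) over the 217 bases before the first annotated exon base, and CHAC1 (chr15:40953251-40953280, plus strand) and ATF3 (chr1:212565205-212565234, plus strand) over the 30 bases around the core.
SESN2: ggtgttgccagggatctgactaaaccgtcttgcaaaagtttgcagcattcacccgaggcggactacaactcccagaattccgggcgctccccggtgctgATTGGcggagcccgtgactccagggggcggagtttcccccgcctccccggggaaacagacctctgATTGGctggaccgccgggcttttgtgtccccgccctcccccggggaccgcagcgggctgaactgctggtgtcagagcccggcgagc
CEBPB: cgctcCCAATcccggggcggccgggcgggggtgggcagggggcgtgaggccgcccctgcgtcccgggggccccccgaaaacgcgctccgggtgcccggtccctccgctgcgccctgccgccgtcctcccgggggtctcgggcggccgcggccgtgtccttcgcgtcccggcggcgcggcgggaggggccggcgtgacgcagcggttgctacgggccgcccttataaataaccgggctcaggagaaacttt
STC2: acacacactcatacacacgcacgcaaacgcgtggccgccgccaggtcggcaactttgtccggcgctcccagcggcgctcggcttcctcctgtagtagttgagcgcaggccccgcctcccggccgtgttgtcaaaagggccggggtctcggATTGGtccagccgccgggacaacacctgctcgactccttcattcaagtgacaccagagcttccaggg
CHAC1: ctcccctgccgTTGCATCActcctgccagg
ATF3: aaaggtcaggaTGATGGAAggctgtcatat

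The core TGATGNAA was found on either strand within 250 bases before a start in 2 of the 10 genes, CHAC1 (209 bases upstream) and ATF3 (191 bases upstream), and in 3.89% of the 27305 genes with an entry. The CHAC1 window precedes a RefSeq start that lies inside the gene as annotated in the count tables, so the CHAC1 core also lies inside that annotated gene. CHAC1 was called higher and ATF3 was not. SESN2, STC2 and CEBPB, which were called higher, have no such letters in this window, and nothing follows from that about ATF4 at these genes, since elements also lie in introns or farther away. CCAAT, a short motif, was found in 7 of the 10 (ATF3, DDIT3, CEBPB, SESN2, DDIT4, CHAC1 and STC2) and in 37.0% of all genes. TATAAA was found in ATF4, ATF3 and CEBPB (3 of 10, against 13.05% of all genes), and the cyclic AMP response element TGACGTCA in 0 of 10 (against 2.03%). Genes with several starts had more than 1 window, so that the shares count genes with a match in any of them.

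Per length, as RPKM (CPM per kilobase of exon), ATF4 had the highest level of the 10 in both lines, at 204 ± 10.6 (T24) and 152 ± 7.77 (T24R2) with the SD of 5 libraries. In T24, DDIT4 (51.7 ± 2.56), STC2 (45.9 ± 2.59), CEBPB (40.5 ± 2.0), TRIB3 (27.7 ± 2.29), DDIT3 (15.2 ± 1.63) and CHAC1 (6.31 ± 0.582) followed in RPKM. ATF3 (2.72 ± 0.338) and SESN2 (2.10 ± 0.487) came next and did not differ beyond their spread, and VLDLR was the lowest (1.02 ± 0.113). In T24R2 the order changed. STC2 (100 ± 4.53 RPKM), the next below ATF4, and CEBPB (70.2 ± 7.58) stood above DDIT4 (52.1 ± 4.77), and SESN2 (6.90 ± 0.821) stood above ATF3 (2.54 ± 0.471). TRIB3 (25.6 ± 1.49 RPKM) stayed below DDIT4, and VLDLR (0.533 ± 0.108) was again the lowest. DDIT3 (13.8 ± 1.80 RPKM) and CHAC1 (10.7 ± 1.40) were no longer apart beyond their spread. This order holds for the counts as deposited. With the estimate for opposite-strand genes taken off, DDIT3 was at 8.25 ± 1.45 RPKM in T24, above CHAC1 but with overlapping SD intervals, and at 4.95 ± 1.89 in T24R2, below CHAC1. With all CEBPB-AS1 counts taken off, CEBPB was at 52.1 ± 4.41 RPKM in T24R2, no longer apart from DDIT4 beyond their spread. The lengths are those of all annotated exons merged, 16507 bases for VLDLR, and RPKM is too low where only part of them is transcribed.

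**Figure D3:**
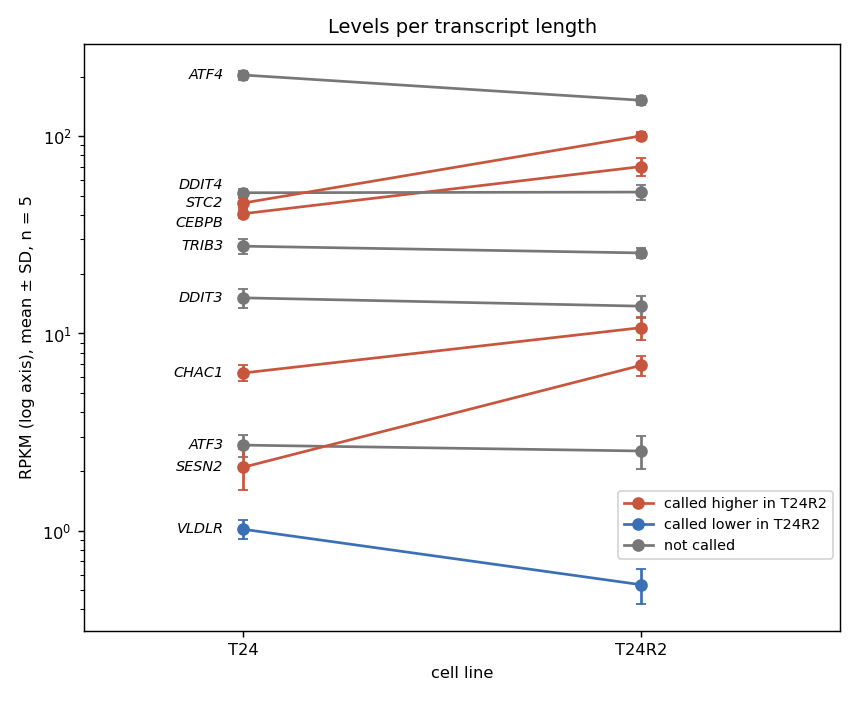
Level per length (RPKM, log axis) of the 10 transcripts in T24 and T24R2, as mean ± SD (n = 5) joined by lines. ATF4 stays at the top at 204 and 152, STC2 and CEBPB pass DDIT4, and SESN2 passes ATF3, all for the counts as deposited.

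Within each line, no library was the highest or the lowest for all 10 transcripts. T24R2 replicate 1 had the highest value of its line for 8 of the 10 transcripts, with a mean deviation of 0.08 on the log2 scale from the line mean, while 23.2% of all tested genes were highest in that library. T24 replicate 3 and T24R2 replicate 3 were each the lowest of their line for 5 of the 10, while 18.7% and 23.8% of all tested genes were lowest there. T24R2 replicate 3 was also the highest of its line for 26.8% of all tested genes. The SD of the log2 CPM was close to that of counting alone for CHAC1 in T24 (0.13 against 0.13). It was well above it for ATF4 in T24R2 (0.07 against 0.02) and for CEBPB in T24R2 (0.16 against 0.04), but less so for CEBPB in T24 (0.07 against 0.05). The largest spread was that of SESN2 in T24 (0.33 against 0.18 for counting), the transcript with the fewest CPM there. With each of the 10 libraries left out in turn, the same 4 transcripts were called higher and VLDLR lower.

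**Figure D4:**
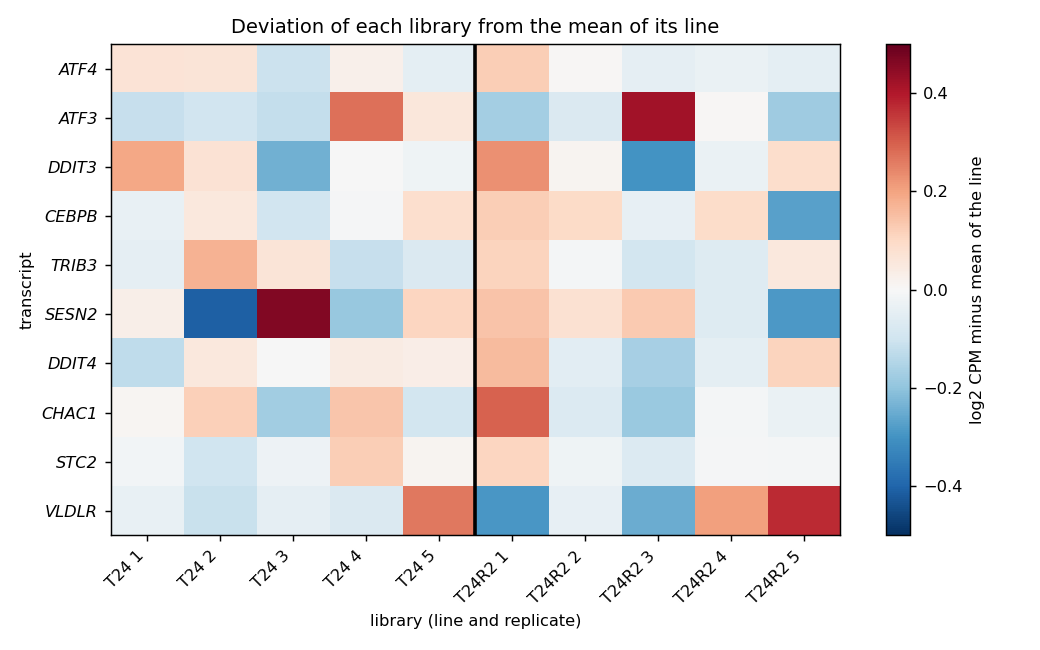
Deviation of log2 CPM from the mean of the line, for each transcript (rows) and library (columns, T24 left of the black line, T24R2 right). T24R2 replicate 1 is red for 8 of the 10 transcripts, and the strongest colours are those of SESN2 in T24 replicates 2 and 3 and ATF3 in T24R2 replicate 3.

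The counts of the related lists that follow are to be read against the same shares of all tested genes, 24.9% higher and 26.5% lower. Some genes are in several lists, so these counts are not independent. CEBPA and CEBPG, for example, were counted as higher both among the bZIP factors and among the paralogs. Upstream of ATF4, the 4 eIF2 kinases were not called. EIF2AK4 (GCN2, the sensor of uncharged tRNA) went from 109 ± 7.77 to 88.7 ± 4.8 CPM (log2 fold change -0.29) and EIF2AK1 (HRI, the heme sensor) from 154 ± 4.73 to 132 ± 8.32 (-0.22). EIF2AK2 (PKR, the sensor of double-stranded RNA) went from 111 ± 5.31 to 124 ± 8.44 (0.15) and EIF2AK3 (PERK, the ER sensor) from 20.7 ± 1.65 to 22.5 ± 1.58 (0.12). The latter interval overlaps 0 (adjusted p = 0.234 by edgeR), whereas the other 3 had adjusted p-values of 7.4e-06, 8.9e-05 and 0.00809 by edgeR with changes under the fold minimum. Of the list of 10 kinases and genes that act on them, 2 were higher and 8 not called (median log2 fold change 0.14). PRKRA, which encodes the PKR activator PACT, rose from 41.9 ± 1.70 to 88.7 ± 6.06 CPM (log2 fold change 1.08, adjusted p = 3.5e-19 by edgeR). IMPACT, which is known to inhibit GCN2 rather than to activate it, rose from 37.0 ± 2.41 to 56.6 ± 3.27 CPM (0.61). GCN1, the ribosome-bound partner of GCN2, was not called at 237 ± 6.75 and 255 ± 13.6 CPM.

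Of the 13 genes of eIF2, its exchange factor eIF2B and the eIF2 phosphatases, 3 were higher, 1 lower and 9 not called (median -0.05). EIF2S3, the gamma subunit of eIF2, rose from 348 ± 12.1 to 633 ± 28.8 CPM (log2 fold change 0.86, adjusted p = 5.6e-21 by edgeR), while EIF2S2, the beta subunit, had 431 ± 15.9 and 311 ± 7.85 CPM and was not called (-0.47). In eIF2B, EIF2B1 was higher (0.66) and EIF2B5, the catalytic subunit, lower (-0.56). An opposite-strand gene covers 15.6% of EIF2B1. PPP1R15A, which encodes GADD34, the stress-induced subunit that directs a phosphatase to eIF2, rose from 71.1 ± 4.09 to 108 ± 13.6 CPM (0.60, adjusted p = 1e-10 by edgeR). The phosphatase subunit PPP1CA, of which 17.97% is covered from the opposite strand, was not called (0.10).

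The other bZIP factors of the ATF and C/EBP families were divided, with 4 higher, 5 lower and 9 not called among the 18 tested of 23 (median -0.17). ATF2 rose from 49.8 ± 3.63 to 152 ± 3.89 CPM (log2 fold change 1.61, adjusted p = 1.1e-26 by edgeR). CEBPG, which encodes a partner of ATF4 on amino acid response genes, rose from 32.2 ± 2.35 to 52.3 ± 2.66 CPM (0.70). CREB3L2, an ER-bound factor, fell from 263 ± 8.09 to 110 ± 5.12 CPM (-1.26). CEBPA was at the floor of 3 counts or fewer in each T24 library and at 4.73 ± 0.752 CPM in T24R2, at least 14.7-fold higher against that floor. An opposite-strand gene covers 43.9% of CEBPA. The ER stress factors ATF6 and ATF6B were not called (0.24 and 0.15).

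The other known targets of ATF4 and CHOP contained more genes called higher than lower. Of 44 listed and 41 tested, 19 were higher, 7 lower and 15 not called, beside 24.9% of all tested genes higher and 26.5% lower, with a median log2 fold change of 0.34 against 0.01 over all tested genes. The list was put together with earlier results of these data known, and no test over it was made. SLC7A11, the cystine importer, had the largest rise, from 57.8 ± 5.79 to 481 ± 31.4 CPM (3.06, adjusted p = 3.7e-35 by edgeR). PSAT1 and PHGDH, enzymes of serine synthesis, rose from 93.8 ± 5.17 to 375 ± 9.12 CPM (2.0, adjusted p = 6.6e-32) and from 150 ± 8.95 to 363 ± 14.6 CPM (1.27, adjusted p = 2.9e-25). The neutral amino acid transporter SLC38A2 and the alanyl-tRNA synthetase AARS1 were not called (-0.11 and 0.28).

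The roles by which these targets are given next were assigned after the values were seen, so the counts are a description and carry no test. Of 17 tested genes of amino acid synthesis, folate metabolism and amino acid transport, PCK2 included, 12 were higher and 5 not called. Among the former were ASNS, the asparagine synthetase, at 2.88 ± 0.636 and 7.45 ± 1.77 CPM (1.37), and CTH, an enzyme of cysteine synthesis, at 6.81 ± 1.75 and 24.6 ± 1.93 CPM (1.85). PCK2 (0.98) was also among them, although it encodes a phosphoenolpyruvate carboxykinase and not a protein of these roles. Of 8 genes of tRNA charging and export, 3 were higher and 5 not called. Of 6 genes of cell death and CHOP output, 1 was higher (PPP1R15A) and 4 were lower. The latter were BBC3 and PMAIP1, which encode the BH3-only proteins PUMA and NOXA, TNFRSF10B, the death receptor DR5, and ERO1A, an ER oxidase, with log2 fold changes of -1.10, -0.67, -0.72 and -0.94. BCL2L11 (BIM) was not called (-0.02). Among 3 tested genes of secreted factors, GDF15, a stress cytokine, fell from 61.7 ± 10.7 to 0.787 ± 0.559 CPM (adjusted p = 2.6e-29 by edgeR) and ADM2 from 8.998 ± 1.11 CPM to the floor of 3 counts, at least 32.5-fold lower. VEGFA was not called (0.34). Of 7 tested genes with other roles, 3 were higher, 1 lower and 3 not called. The 10 transcripts are not in these counts, and among them STC2, which is secreted, and CHAC1, a CHOP branch gene, rose.

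The ER chaperones and the IRE1 and ATF6 arms of the unfolded protein response, which ER stress raises beside ATF4, were more often lower than higher. Of 28 genes, 3 were higher, 10 lower and 15 not called (median -0.25), beside 24.9% of all tested genes higher and 26.5% lower. The folding factors PDIA3 and CALR fell from 708 ± 10.4 to 304 ± 12.2 CPM (log2 fold change -1.22, adjusted p = 1.7e-26 by edgeR) and from 1400 ± 29.4 to 621 ± 23.1 CPM (-1.17, adjusted p = 2.1e-26). HSP90B1 (GRP94) fell from 1098 ± 39.1 to 586 ± 23.3 CPM (-0.91). HERPUD1, a factor of ER-associated degradation, rose from 72.9 ± 6.68 to 127 ± 2.48 CPM (0.80). HSPA5 (BiP), the chaperone most often read as a marker of ER stress, had 1028 ± 68.6 and 926 ± 41.0 CPM and was not called (-0.15), nor was CANX (0.47).

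For mTORC1, which SESN2 and DDIT4 restrain, 7 of 27 tested genes were higher, 4 lower and 16 not called (median 0.18), and the share that was higher is near the 24.9% of all tested genes. RRAGD and RRAGB, 2 of the Rag GTPases that bring mTORC1 to the lysosome, rose from 0.729 ± 0.429 to 19.5 ± 1.34 CPM (log2 fold change 4.71, adjusted p = 7.7e-23 by edgeR) and from 5.50 ± 1.01 to 22.9 ± 2.62 CPM (2.05, adjusted p = 8.6e-18). The kinase gene MTOR rose by 0.73 on the log2 scale. NPRL3, a subunit of the GATOR1 complex that inhibits the Rag GTPases, fell from 107 ± 5.73 to 55.5 ± 4.33 CPM (-0.95), with 14.1% of its exon bases covered from the opposite strand. RHEB, the direct activator of mTORC1, and SEC13 were not called (0.48 and -0.20).

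Of 14 tested paralogs of the 10 genes, 8 were higher, 4 lower and 2 not called (median 0.65), beside 51.4% of all tested genes called (24.9% higher, 26.5% lower). STC1, the paralog of STC2, fell from 17.2 ± 2.65 CPM to the floor of 3 counts or fewer in each T24R2 library, at least 62.1-fold lower, while STC2 rose. DDIT4L, the paralog of DDIT4, rose from 4.78 ± 0.278 to 50.6 ± 1.48 CPM (log2 fold change 3.40, adjusted p = 2.8e-29 by edgeR), while DDIT4 itself was not called. TRIB2 fell from 40.2 ± 2.10 to 7.03 ± 1.93 CPM (-2.52, adjusted p = 2.8e-22), with TRIB3 and TRIB1 (0.25) not called. CHAC2, a paralog of CHAC1 with low counts, was not called (0.40, adjusted p = 0.0673 by edgeR). The other sestrins, SESN1 (1.17) and SESN3 (0.66), were both called higher, as SESN2 was. For SESN3, which has low counts, the lines overlap, at 1.49 to 2.39 CPM in T24 and 2.14 to 4.62 in T24R2. Its adjusted p was 0.0235 by edgeR, and the exact two-sided permutation test gave p = 0.0714.

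Among 10 genes of ATF4 protein turnover and coactivators, 4 were higher and 2 lower (median 0.40). The F-box proteins that mark ATF4 for degradation went opposite ways, FBXW11 rising from 92.8 ± 3.41 to 235 ± 11.9 CPM (log2 fold change 1.34, adjusted p = 1.5e-25 by edgeR) and BTRC falling from 32.8 ± 2.89 to 23.0 ± 2.68 CPM (-0.51, adjusted p = 1.9e-06 by edgeR). CUL1, the cullin of the same ligase, rose (1.12; 11.1% covered from the opposite strand), as did the acetyltransferase and coactivator EP300 (0.92). SKP1 and CREBBP were not called (0.34 and 0.47).

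SESN2 is also a p53 target, and the other p53 targets were mostly lower. Of the 18 genes of that list, which includes the p53 gene itself, 6 were higher, 11 lower and 1 not called (median -1.03), beside 24.9% of all tested genes higher and 26.5% lower. CDKN1A (p21) fell from 97.7 ± 4.11 to 12.8 ± 1.76 CPM (log2 fold change -2.93, adjusted p = 1.4e-30 by edgeR), GADD45A fell from 169 ± 4.51 to 70.2 ± 4.0 CPM (-1.26), and AEN, an apoptosis-linked nuclease, fell from 64.8 ± 7.56 to 25.6 ± 1.56 CPM (-1.34). PLK3 was the gene not called (-0.40). GDF15 and BBC3 are in this list and in that of ATF4 and CHOP targets. This list holds only some of the known p53 targets, so genes counted only with the ATF4 and CHOP targets may be p53 targets too. Whether the falls of BBC3, PMAIP1 and TNFRSF10B go with CHOP or with p53 was not tested.

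**Figure D5:**
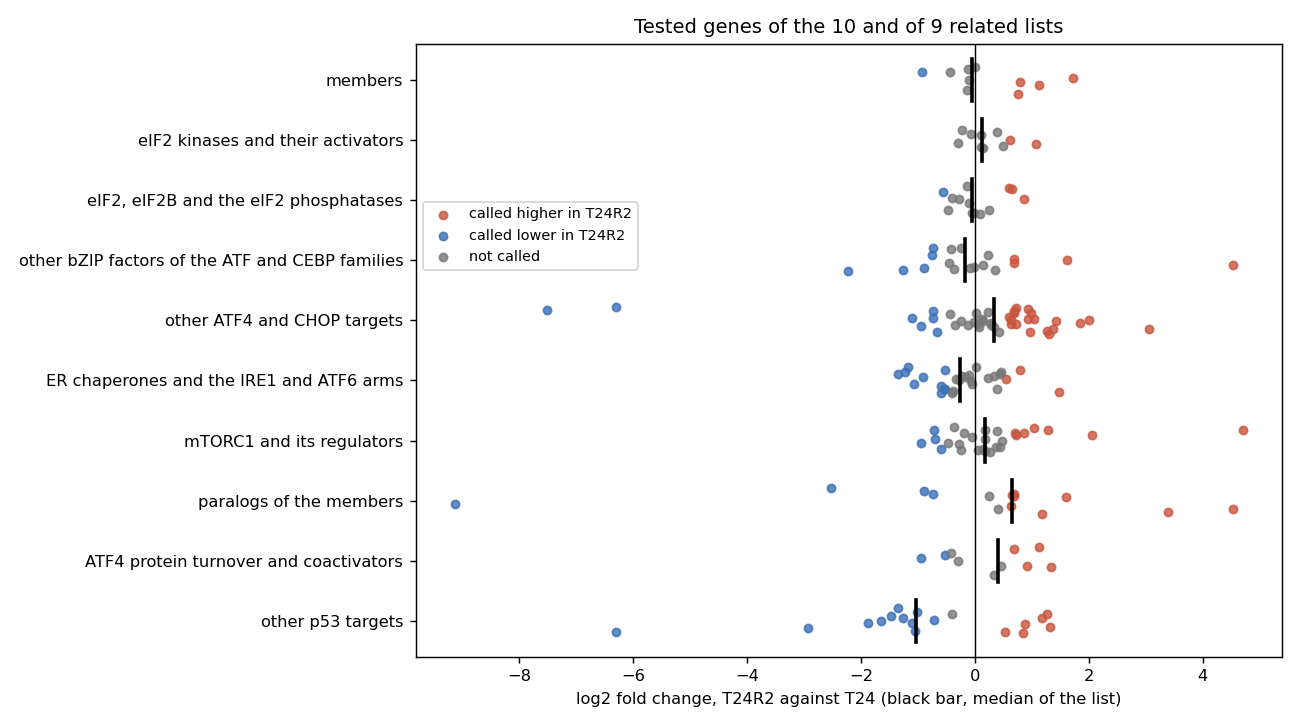
Log2 fold change in T24R2 against T24 of every tested gene among the 10 transcripts (top row, "members") and 9 related lists, coloured by call, with the list's median as a black bar. Points of STC1, ADM2 and CEBPA are fitted values of genes at the floor in 1 line and are no measure of size. Medians run from -1.03 for the other p53 targets to 0.65 for the paralogs, and that of the 10 transcripts is -0.04.

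The genes outside all lists whose log2 CPM followed ATF4 most closely over the 10 libraries were MTSS2 (Pearson r = 0.992), RPL15 (0.991), RPL7A (0.991), FAM50A (0.990) and CUEDC2 (0.990). All 5 were lower in T24R2, RPL15 (-0.30) and RPL7A (-0.37) by less than the fold change minimum. Since a line difference alone gives a high r over 2 groups of 5, this is a description of which genes share the pattern and nothing more.

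The labelled cell type was checked against its markers. The simple keratins KRT7, KRT8 and KRT18 were abundant in both lines, whereas KRT20 was at 0 in all libraries and the uroplakins were low, UPK2 being the only one of them tested. All 9 tested urothelial markers of 18 were lower in T24R2, and their summed level went from 5011 to 5745 CPM in T24 to 3029 to 3233 in T24R2. KRT19 was at least 966-fold lower, and the luminal factors GATA3, FOXA1 and PPARG fell by 6.57, 2.27 and 1.54 on the log2 scale. Of 15 markers of other cell types, 5 were tested and 4 were lower in T24R2. Their summed level was 239 to 289 CPM in T24 and 5.998 to 9.69 in T24R2, nearly all of it in T24 from CDH5, an endothelial cadherin (239 ± 22.3 and 0.559 ± 0.310 CPM). PDGFRB, a marker of stromal cells, ACTA2, of smooth muscle, and PECAM1, of endothelium, were at 3.43 ± 0.626, 5.25 ± 1.28 and 5.36 ± 1.25 CPM in T24 and lower in T24R2. Of the exon bases of ACTA2, 30.1% are covered from the opposite strand. MYH11 was not called. The part of this marker difference in the values of the 10 transcripts was not tested.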

How the data were processed

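Per the labels and methods, the authors aligned reads to hg38 with STAR 2.7.0, removed duplicates with samtools 1.10 and counted fragments on GENCODE release 39 with featureCounts 2.0.1 (strand option 1), and the deposited values are raw counts per gene and library, without normalization. Whether the kit keeps strand is not settled by the sources used here, and removing duplicates by position can lower counts where a transcript is very abundant. Of 61533 genes, 61369 had a symbol and 33622 a count, and 0 rows lacked an identifier. Counts of 16181 genes that passed filterByExpr were tested in R 4.3.3 with edgeR 4.0.16 (TMM, glmQLFit, glmQLFTest, Benjamini-Hochberg adjustment). Each of the 20 replicate pairs differed by more than counting error (chi-square divided by its degrees of freedom, 2.01 to 7.04). In simulated counts of this comparison, with 198 changed genes among the 15924 genes that passed the filter, edgeR called 194 of them and 2 unchanged genes. Those changes were few, were drawn alike for both directions and were all larger than those of CEBPB, CHAC1 and VLDLR. This recovery therefore does not cover changes near the fold change minimum, nor a comparison in which 51.4% of genes were called.

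CPM and RPKM used TMM-scaled library sizes. Floors of 3 counts, counted in each library of a line, cover counting error only. The density estimate for DDIT3 was made from exon coordinates with bedtools 2.31.1, and the rest was run in Python 3.11.15 with numpy 2.4.6, pandas 2.3.3, SciPy 1.17.1 and matplotlib 3.10.9.

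The 10 genes and the 11 lists beside them were chosen with earlier results of these data known. Named are the 10 genes, from each list up to 4 called genes with the smallest adjusted p and up to 2 uncalled ones with the highest CPM, genes overlapping the 10, and the 5 genes most correlated with ATF4 (log2 of CPM + 0.5). The other eIF2 kinases, the other sestrins, the targets named by role, the p53 gene and markers outside this rule were named after their values were seen. Values of a few genes under this rule are left out here. Alternatives were other scalings, DESeq2 1.42.0, limma-voom (limma 3.58.1), count filters, thresholds, a replicate block, leaving out each library and, added later, handling of opposite-strand genes.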

Additional observations from a re-analysis of the deposited data

Results flagged for a closer look

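Of 24 groups of 5 libraries examined for a value far from the rest (the 10 transcripts, the total counts and the mitochondrial share, in each line), 2 held one, where chance gives about 1.2. ATF3 in T24R2 replicate 3 was at 13.5 CPM, while the other 4 T24R2 libraries were at 8.95 to 10.2. VLDLR in T24 replicate 5 was at 20.1 CPM, while the other 4 T24 libraries were at 15.5 to 16.3. Neither value decides a call: with each of these libraries left out in turn, ATF3 was not called and VLDLR was called lower. The log2 fold change of ATF3 moved from -0.10 to -0.21 without T24R2 replicate 3 (adjusted p = 0.144 by edgeR).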

How the results depend on the processing

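Without scaling beyond library size, the median log2 fold change of all tested genes moved from 0.01 to 0.18, and of 8637 genes called 5206 were higher and 3431 lower, against 4027 and 4282 of 8309 with TMM. Against 88 genes of the related lists called with TMM (49 higher, 39 lower), 93 were called without this scaling (62 higher, 31 lower). There, ATF3 (0.062), DDIT3 (0.023) and TRIB3 (0.050) turned to values above 0, still not called, ATF4 shrank to -0.26, DDIT4 went to 0.17 (adjusted p = 0.00524 by edgeR, under the fold change minimum), and the other 5 transcripts kept their direction and call. With genes of a mean of at least 100 counts, 4991 genes were called (2350 higher and 2641 lower). Without a fold change minimum, 6128 genes were called higher, ATF4 was called (-0.43), 2 of the 10 transcripts were lower, and 145 genes of the related lists were called (78 higher, 67 lower) instead of 88 (49 and 39). With a log2 minimum of 1, 4211 genes were called (1918 higher and 2293 lower), 42 list genes (23 and 19), and 2 of the 10 transcripts, both higher (2), with 0 lower: CEBPB (0.79), CHAC1 (0.76) and VLDLR (-0.93) were no longer past it. Without every gene overlapped from the opposite strand, added after the data were seen, 4302 genes (2127 higher, 2175 lower), 41 list genes (26 and 15) and 3 of the 10 transcripts were called, 0 of them lower, because CEBPB, DDIT3 and VLDLR were left out. DDIT3 was at -0.74 with opposite-strand counts taken off. DESeq2, limma-voom and upper-quartile scaling changed no call among the 10 transcripts. With 1 library left out at a time, 8398 to 8466 genes were called (4042 to 4138 higher, 4293 to 4374 lower), and 85 to 90 list genes. The 10 transcripts then gave 5 calls each time, and ATF4 ranged from -0.46 to -0.41 and DDIT4 from -0.025 to 0.055, with values below 0 when replicate 1 of T24 (-0.025), replicate 1 of T24R2 (-0.025) or replicate 5 of T24R2 (-0.011) was left out. Replicate numbers did not pair the samples: the correlation of deviations between same-numbered libraries was -0.02 to 0.02, and 1 of the 5 numbers correlated best with its own. A replicate block gave 8240 calls, 5 of them among the 10 transcripts. ATF3, VLDLR and SESN2, which have few counts, had the widest intervals of the 10, and their replicates spread by more than counting error.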
